A study of Caenorhabditis elegans with 12 samples.

Results

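Insulin-like peptide genes of Caenorhabditis elegans were followed in whole adult worms that lack a working XPF-1 nuclease. Members were taken by name: every gene called ins- followed by a digit, plus daf-28, which gave 40 genes of the 46726 in the deposited table. Whole bodies of xpf-1(tm2842) mutants, all of the single strain TG1660, were compared with those of N2, the laboratory wild type, with 6 mRNA libraries in each group. Both groups were at day 7 of adulthood, were fed Escherichia coli OP50, and pools of age-matched animals gave the RNA. XPF-1 is a nuclease subunit that works in the repair of bulky DNA lesions. One library, N2 replicate 6, has conflicting labels, N2 as strain and the mutant as genotype, and its title kept it in N2.

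Insulin-like peptides are small secreted proteins with the disulfide-linked fold of insulin. In worms they are made mostly in neurons, and some in the intestine and epidermis, and they act on DAF-2, the insulin receptor of this animal. An active receptor drives the kinases AGE-1, PDK-1, AKT-1 and AKT-2, which keep the transcription factor DAF-16 out of the nucleus. Some peptides act as agonists of DAF-2 and others as antagonists, and the family is known for its control of dauer arrest, lifespan, germ cell proliferation and learning.

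Library totals ran from 18407182 to 22817135 reads in xpf-1 and from 18667885 to 22370786 in N2. The targeted gene (listed as C47D12.8, WBGene00008140) had 213 to 304 reads in the mutant libraries and 1192 to 1758 in the N2 libraries, where the library with conflicting labels had 1468. Germline and oocyte markers differed between the groups as well. All 10 were lower in xpf-1, with a summed level of 1403 to 1656 CPM (counts scaled to 1e+06 counts per library) in xpf-1 and 2893 to 3443 CPM in N2. Of 7 embryo markers tested, 5 were lower and 0 higher. Over all tested genes, 29.6% were lower and 30.1% higher. The embryo list summed to 201 to 214 CPM in xpf-1 and 330.4 to 356 CPM in N2. Most of that sum was pal-1, at 129 CPM in xpf-1 and 243 CPM in N2 on average.

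The family as a whole was read thinly. The 40 genes took 5158 to 6401 reads per library in xpf-1 and 3654 to 4307 in N2. In this annotation their products are short: the 39 members with a coding transcript in Ensembl release 115 have 2 or 3 exons and encode 67 to 218 residues, with a median of 103. The low-count filter left 26 members to test and 14 that could not be tested. The median tested member had a mean level of 2.41 CPM, against 17.3 CPM for the median of all tested genes. A member can pass this filter through the group in which it is higher, as daf-28 and ins-37 did. The counts below therefore describe those 26 genes and not the family.

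More members were higher than lower in the mutant. In edgeR's quasi-likelihood test at an adjusted p of 0.05, 12 of the 26 tested members were higher in xpf-1, 5 were lower and 9 did not pass. The 17 calls are 65.4% of the tested members, and 59.7% of all 14248 tested genes were called. The 12 that rose are 46.2% of the tested members, where 30.1% of all tested genes rose, and the 5 that fell are 19.2%, where 29.6% of all tested genes fell. The median log2 fold change (mutant over wild type, as throughout) was 0.28 in the tested members and 0.03 in all tested genes. The 2 groups did not overlap at all for 9 members, which is 34.6% of the tested members against 38.2% of all tested genes. In 8 of them the mutant libraries were the higher ones, as in 17.9% of all tested genes, and in 1 the lower ones, as in 20.3%. In whole animals, fewer cells that make a peptide and less RNA per cell cannot be told apart.

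**Figure D1:**
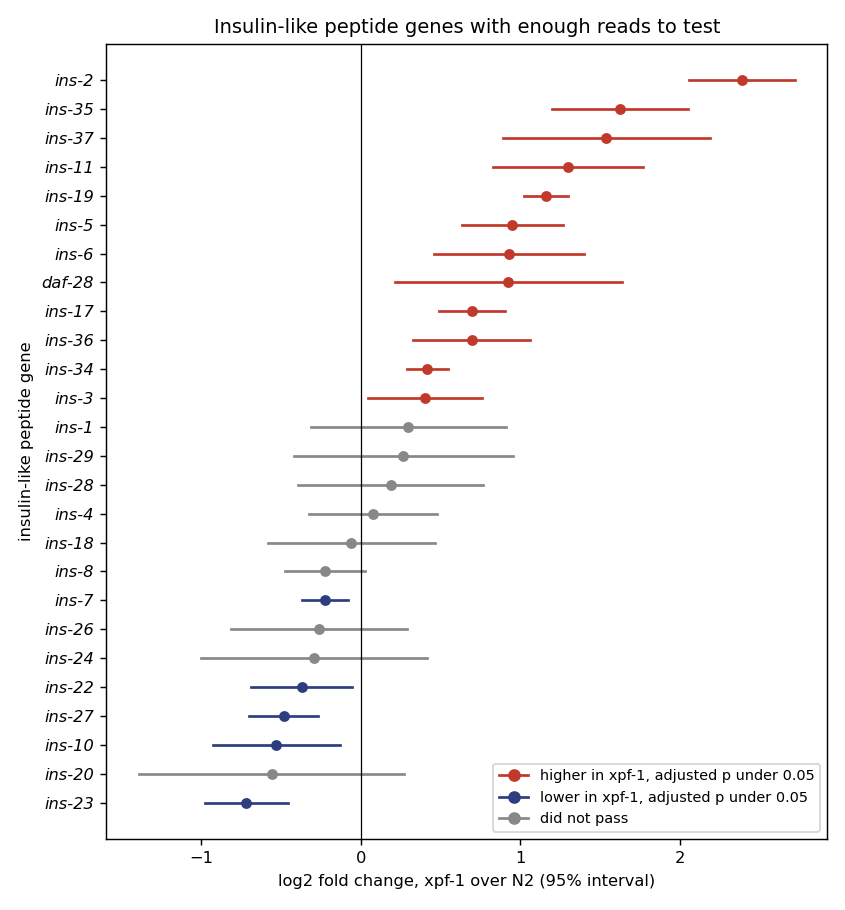
Log2 fold change, mutant over wild type (horizontal axis), with its 95% interval for each of the 26 tested insulin-like peptide genes, from edgeR over 6 libraries per group. ins-2 stands at 2.39 at the top and ins-23 at -0.72 at the bottom, and the 9 genes in grey did not pass.

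The largest rise was in ins-2. Its level ran from 6.32 to 8.88 CPM in xpf-1 with a median of 7.17, and from 0.962 to 2.13 CPM in N2 with a median of 1.34. The lowest mutant library thus stood well above the highest N2 library. The log2 fold change was 2.39 ± 0.16 (SE), or 5.29-fold between the means, with an edgeR adjusted p of 3.16e-14. In an exact permutation test over libraries, the two-sided p was 0.0022, the smallest that 924 splits allow. Any gene whose groups do not overlap has this p. For the 9 such members it therefore restates the separation and is no second support.

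ins-19, the most abundant member per length in both groups, rose as well. It had 107 to 126 CPM in xpf-1 with a median of 114.7, and 46.0 to 64.6 CPM in N2 with a median of 50.8. The groups were far apart, with every mutant library higher. The log2 fold change was 1.16 ± 0.07 (SE), with an edgeR adjusted p of 1.07e-14. It lies on chromosome II from 3126032 to 3126441, on the minus strand (WBcel235, the build of all positions here).

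Agonist-like ligands are those reported to activate DAF-2. Of the 7 listed, 6 could be tested, and of these 4 rose, 1 fell and 1 did not pass, where 30.1% of all tested genes rose and 29.6% fell. Of the 4 rises, those of daf-28 and ins-3 were lost when single libraries were left out, as given below. ins-35, a peptide reported in the intestine, had 2.60 to 4.199 CPM in xpf-1 with a median of 3.26, and 0.729 to 1.63 CPM in N2 with a median of 1.00. All mutant libraries stood above all N2 libraries, with a log2 fold change of 1.62 ± 0.21 (SE) and an edgeR adjusted p of 4.50e-08. ins-6, made in sensory neurons and known for the exit from dauer, had 1.81 to 2.28 CPM in xpf-1 with a median of 2.03, and 0.525 to 1.56 CPM in N2 with a median of 1.12. The groups did not overlap, and the log2 fold change was 0.93 ± 0.23 (SE), with an edgeR adjusted p of 0.000835.

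The founding dauer ligand of the family, daf-28, was near the limit of detection. It had 115 reads over the 6 mutant libraries and 56 over the 6 N2 libraries. It passed the low-count filter through the mutant libraries, with 12 to 28 reads in each, against 4 to 15 in each N2 library. Its level ran from 0.589 to 1.19 CPM in xpf-1 with a median of 0.887, and from 0.182 to 0.781 CPM in N2 with a median of 0.487, so the ranges overlapped. The log2 fold change was 0.92 ± 0.35 (SE), with an edgeR adjusted p of 0.0227. Without xpf-1 replicate 6 the daf-28 adjusted p was 0.056, and without N2 replicates 1, 5 or 6, left out one at a time, it was 0.0737, 0.0622 and 0.0654. ins-3, which with ins-33 has been reported to promote larval germ cell proliferation, had 2.88 to 4.86 CPM in xpf-1 with a median of 3.55, and 1.87 to 3.85 CPM in N2 with a median of 2.74. Its groups overlapped widely, and its log2 fold change of 0.40 ± 0.18 (SE) only just passed, with an edgeR adjusted p of 0.049. That call was lost without xpf-1 replicate 3, 4 or 6 and without N2 replicate 1, 3, 5 or 6, left out one at a time, where the ins-3 adjusted p was 0.0568 to 0.148.

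ins-7, an agonist made in the intestine and in neurons whose transcription DAF-16 is known to lower, was the member that fell among the agonist-like ligands. It had 44.5 to 51.5 CPM in xpf-1 with a median of 46.7, and 48.0 to 69.0 CPM in N2 with a median of 54.9. The ranges overlapped, and the change was small, at -0.22 ± 0.07 log2 units (SE) with an edgeR adjusted p of 0.00713. The call was lost under library totals as the only scaling (0.0594) and under upper quartile scaling (0.0891). ins-4, which is expressed in sensory neurons and shares roles with ins-6, had 1.47 to 2.93 CPM in xpf-1 and 1.59 to 2.83 CPM in N2, and it did not pass. The 95% interval of its log2 fold change was -0.32 to 0.48. ins-33 had 15 reads over the mutant libraries and 11 over the N2 libraries, too few to test.

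Of the 3 antagonist-like ligands, 1 rose and the others did not pass, where 30.1% of all tested genes rose and 29.6% fell. ins-17, reported to promote dauer entry, had 11.6 to 14.4 CPM in xpf-1 with a median of 12.65, and 5.72 to 8.94 CPM in N2 with a median of 8.20. No mutant library reached down to the N2 range, and the log2 fold change was 0.70 ± 0.10 (SE), with an edgeR adjusted p of 5.14e-07. ins-1, known from learning in salt chemotaxis, had 0.339 to 2.04 CPM in xpf-1 and 0.779 to 1.45 CPM in N2, with an interval of -0.31 to 0.91 for its log2 fold change. ins-18, the other antagonist reported in dauer formation and lifespan, had 0.751 to 1.99 CPM in xpf-1 and 0.877 to 2.32 CPM in N2, with an interval of -0.58 to 0.47.

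**Figure D2:**
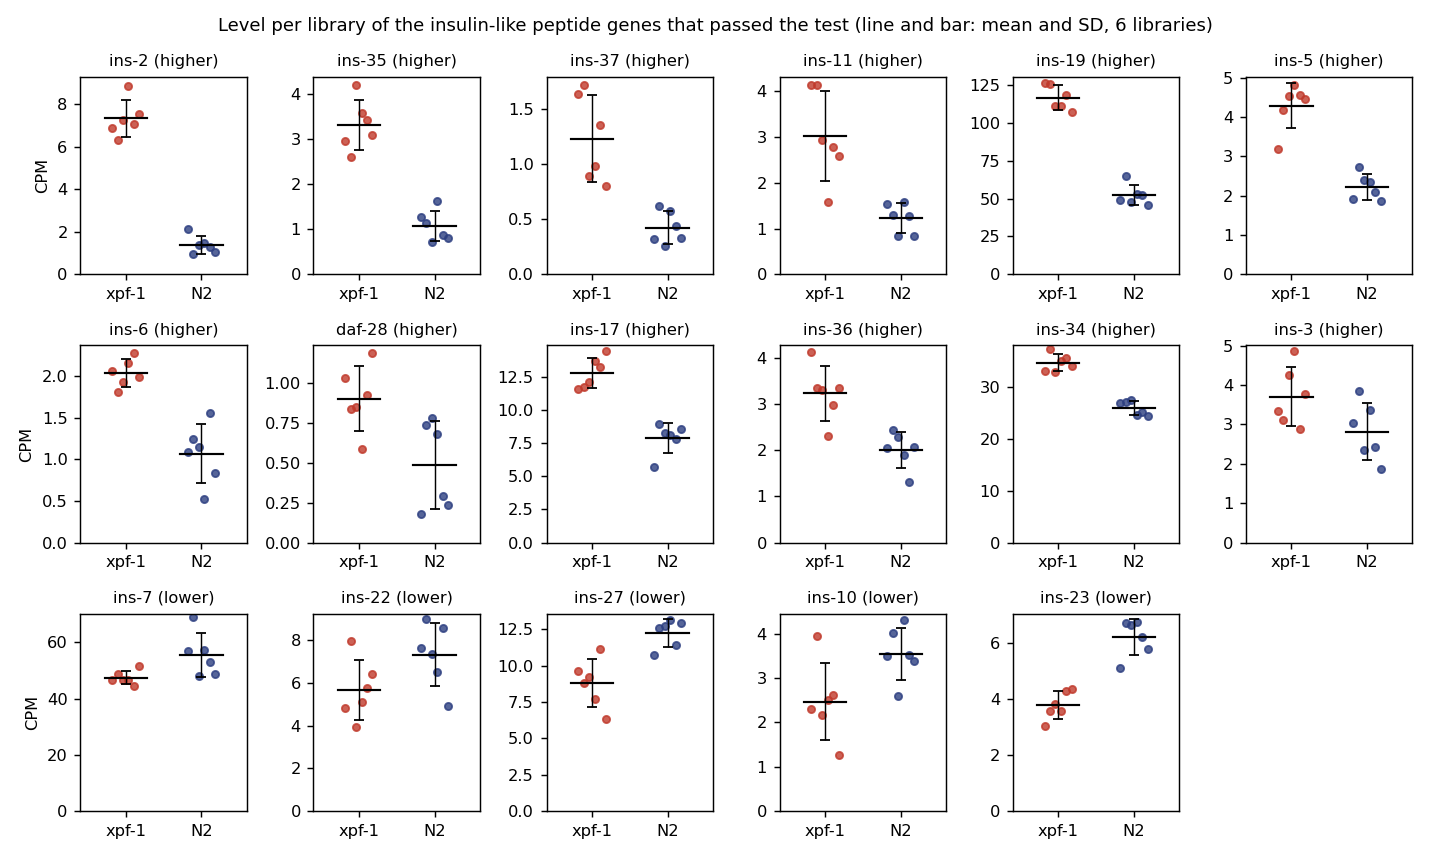
CPM per library of the 17 members that passed the test, with xpf-1 left of N2 in each panel, 1 point per library and the mean with its SD as a line and bar (n = 6 each). Each panel has its own scale from 0, and the groups separate fully in 9 of the 17 panels.

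Members with less settled roles made up the rest of the rises. ins-37 had 0.805 to 1.72 CPM in xpf-1 with a median of 1.17, and 0.26 to 0.622 CPM in N2 with a median of 0.383. The groups did not overlap, but the gene was thinly read, with 155 reads over the mutant libraries and 50 over the N2 libraries. It passed the low-count filter through the mutant libraries, with 19 to 37 reads in each, against 5 to 11 in each N2 library. That it was tested at all thus rests on the group where it is higher. The log2 fold change was 1.54 ± 0.32 (SE), with an edgeR adjusted p of 9.61e-05. ins-11, an intestinal peptide that takes part in the avoidance of pathogenic bacteria, had 1.57 to 4.14 CPM in xpf-1 with a median of 2.85, and 0.833 to 1.57 CPM in N2 with a median of 1.28. The lowest mutant library touched the N2 range and the others lay above it, with a log2 fold change of 1.30 ± 0.23 (SE) and an edgeR adjusted p of 1.19e-05.

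The remaining rises were smaller. ins-5 had 3.19 to 4.81 CPM in xpf-1 with a median of 4.49, and 1.87 to 2.72 CPM in N2 with a median of 2.23. Its groups did not overlap, and the log2 fold change was 0.95 ± 0.16 (SE), with an edgeR adjusted p of 3.51e-06. ins-34, the third most abundant member, had 32.8 to 37.3 CPM in xpf-1 with a median of 34.4, and 24.3 to 27.4 CPM in N2 with a median of 26.0. Its groups did not overlap either, although the log2 fold change was only 0.42 ± 0.06 (SE), with an edgeR adjusted p of 9.83e-07. ins-36 had 2.31 to 4.13 CPM in xpf-1 with a median of 3.32, and 1.32 to 2.43 CPM in N2 with a median of 2.05. A single mutant library reached into the N2 range, and the log2 fold change was 0.69 ± 0.18 (SE), with an edgeR adjusted p of 0.00123. The span of ins-36 holds the antisense genes Y53H1A.7 and anr-40, whose reads cannot be told apart from its own without the strand. Those genes averaged 0.202 and 0.314 CPM in xpf-1, and 0.106 and 0.280 CPM in N2.

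Besides ins-7, 4 members fell. ins-23 had 3.05 to 4.37 CPM in xpf-1 with a median of 3.70, and 5.13 to 6.77 CPM in N2 with a median of 6.45. It was the only tested member whose mutant libraries all lay below all N2 libraries, with a log2 fold change of -0.72 ± 0.13 (SE) and an edgeR adjusted p of 1.20e-05. ins-27 had 6.36 to 11.1 CPM in xpf-1 with a median of 9.01, and 10.7 to 13.2 CPM in N2 with a median of 12.7. A single mutant library reached the N2 range, and the log2 fold change was -0.48 ± 0.11 (SE), with an edgeR adjusted p of 0.000238.

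The other falls were less secure. ins-10 had 1.27 to 3.95 CPM in xpf-1 with a median of 2.40, and 2.60 to 4.30 CPM in N2 with a median of 3.50. Its log2 fold change was -0.53 ± 0.19 (SE), with an edgeR adjusted p of 0.0198, and the call was lost without xpf-1 replicate 6 (0.0612). Its span ends at 14034341, and that of vps-39, on the other strand, starts at 14034335, so they overlap only at that end. The gene vps-39 is read far more and was itself lower in xpf-1, so shared reads are possible there. ins-22, whose tagged protein is a common marker of dense-core vesicles, had 3.92 to 7.95 CPM in xpf-1 with a median of 5.43, and 4.92 to 8.998 CPM in N2 with a median of 7.48. The groups overlapped, with a log2 fold change of -0.37 ± 0.15 (SE) and an edgeR adjusted p of 0.0414. The ins-22 call was lost without xpf-1 replicate 1, 3, 4 or 5 or N2 replicate 1, 2, 3 or 5, left out one at a time, where the adjusted p was 0.0617 to 0.105. It was lost too under library totals (0.0948) and upper quartile scaling (0.108), and in limma-voom (0.0515).

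The other tested members did not pass, and their intervals differ in width. ins-8 had 4.74 to 7.74 CPM in xpf-1 and 5.83 to 8.26 CPM in N2, with an interval of -0.48 to 0.03 for its log2 fold change. It passed as a fall only without xpf-1 replicate 3 (edgeR adjusted p = 0.0326). ins-28 had 0.636 to 2.00 CPM in xpf-1 and 0.629 to 1.64 CPM in N2, with an interval of -0.39 to 0.77. The least read of them, ins-20, ins-24, ins-26 and ins-29, averaged 0.415, 0.570, 0.961 and 0.822 CPM in xpf-1 and 0.6245, 0.707, 1.15 and 0.687 CPM in N2. The interval of ins-20 ran from -1.39 to 0.27, so its change was poorly bounded at this depth.

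Levels per length set the members in order. In FPKM, the authors' fragments per kilobase and library size, ins-19 averaged 324 ± 20.3 in xpf-1 and 139 ± 16.5 in N2 (SD, n = 6 each). ins-7 followed at 111 ± 6.91 FPKM in xpf-1 and 124 ± 16.13 FPKM in N2, and ins-34 at 84.4 ± 4.61 and 60.2 ± 3.04 FPKM in the same groups. The ranges of ins-19 and ins-7 over libraries did not meet in xpf-1 and overlapped in N2. The authors' FPKM of ins-7, ins-8, ins-27 and ins-36 rest on a length shorter than the deposited one, which lifts those values by 1.08 to 1.22 times. Next in order came ins-27, ins-17, ins-22, ins-8, ins-2 and ins-23 in xpf-1, between 23.98 and 13.1 FPKM. On its deposited length ins-27 would average 19.6 FPKM in xpf-1, below ins-17 at 21.8 FPKM, so the order of that pair is unsure. In N2 the next were ins-27, ins-22, ins-23, ins-8 and ins-17, between 31.9 and 12.9 FPKM, and ins-2 stood far lower there at 2.49 ± 0.765 FPKM. The neighbours ins-22 and ins-8 in xpf-1, and each neighbouring pair of ins-22, ins-23 and ins-8 in N2, differed by less than the SD of ins-22. daf-28 averaged 2.52 ± 0.558 FPKM in xpf-1 and 1.28 ± 0.72 FPKM in N2.

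A single gene carried most of the difference in the summed level. Over all 40 members the sum was 270.5 to 297 CPM in xpf-1 and 182 to 238 CPM in N2, a ratio of means of 1.39. ins-19 made up 41.5 ± 1.67% of that sum in xpf-1 and 25.8 ± 0.952% in N2 (SD, n = 6 each), while ins-7 made up 16.97 ± 1.11% in xpf-1 and 27.4 ± 1.44% in N2. Within a library and with no correction for length, ins-19 stood at 2.08 to 2.69 times the CPM of ins-7 in xpf-1, and at 0.864 to 0.996 times in N2. Without ins-19 the summed level was 159 to 172 CPM in xpf-1 and 136 to 174 CPM in N2, and the ranges overlapped. With ins-7 left out too, the sum was 112 to 123 CPM in xpf-1 and 87.4 to 105 CPM in N2, a ratio of 1.23, and the ranges did not overlap. ins-7 was itself lower in xpf-1, so leaving it out raises the ratio. The choice of members fixes these sums, so no test was made on them.

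**Figure D3:**
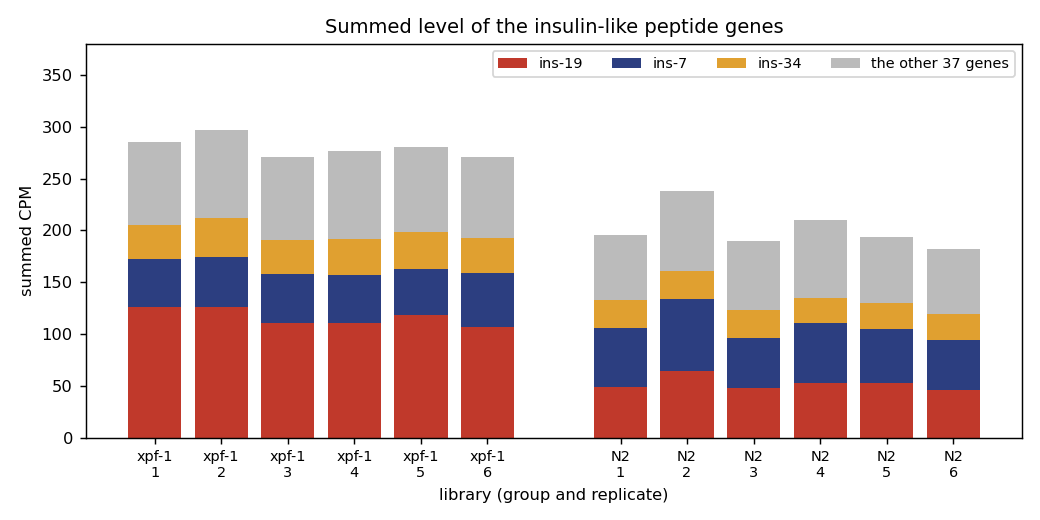
Summed CPM of the 40 insulin-like peptide genes in each library, split into ins-19, ins-7, ins-34 and the other 37 genes, with the 6 xpf-1 libraries on the left and the 6 N2 libraries on the right. The mutant bars end between 270.5 and 297 CPM and the N2 bars between 182 and 238 CPM, and the ins-19 segment differs most.

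Most members have a neighbour of their own family, and both rises and falls were called among the members that lie in clusters. With members joined where less than 20000 bases separate them, 26 of the 40 fall into 7 clusters and 14 stand alone. In the cluster on chromosome II from 5988526 to 6011321, all 6 members were tested: ins-2, ins-3, ins-5 and ins-6 rose, and ins-4 and ins-20 did not pass. Over all tested genes, 30.1% rose and 29.6% fell, and the ins-3 call was lost when single libraries were left out. The rises there were unequal, at 2.39 log2 units for ins-2 and 0.40 for its neighbour ins-3, and ins-4 lies between ins-3 and ins-5. Only 1 other protein-coding gene, ZK84.4, lies inside that span, with 9 reads over the mutant libraries and 10 over the N2 libraries.

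The clusters on the other chromosomes held 4 of the 5 falls, where 30.1% of all tested genes rose and 29.6% fell. Among them, the calls of ins-7 and ins-22 were lost under library totals and upper quartile scaling. On chromosome I from 14012442 to 14037803 lie 7 members, of which 5 were tested: ins-27 fell, and ins-24, ins-26, ins-28 and ins-29 did not pass. On chromosome III from 10023804 to 10028600, ins-22 and ins-23 both fell and ins-21 could not be tested. On chromosome IV from 9680387 to 9682928, ins-7 fell and its neighbour ins-8 had a log2 fold change of the same size, -0.22 ± 0.12 (SE), that did not pass. The other clusters, all on chromosome II, held ins-19 with ins-31, ins-11 with ins-12, ins-13 and ins-38, and ins-14 with ins-15. In those clusters only ins-19 and ins-11 could be tested, and both rose. Differences between clusters were not tested.

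**Figure D4:**
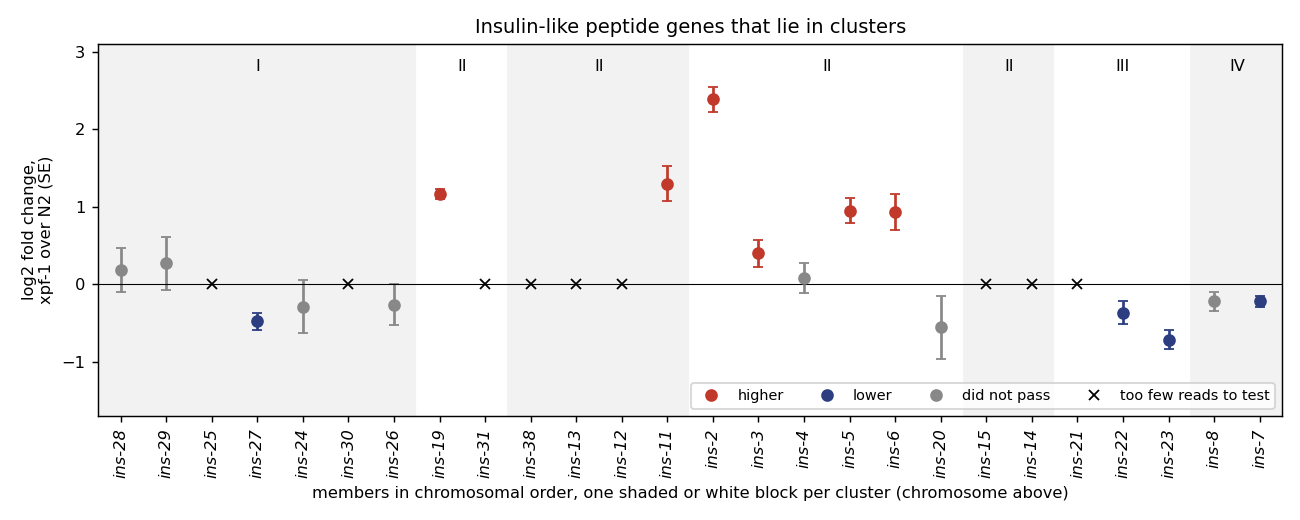
Log2 fold change, mutant over wild type, with its SE for the 26 members that lie in 7 clusters, in their order along each chromosome. Crosses on the zero line mark members with too few reads to test. In the fourth block ins-2 stands at 2.39, while ins-4 and ins-20 in the same block did not pass.

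The 14 untested members were all near the floor of detection except ins-31. Among those with more reads in the mutant were ins-9 with 40 reads over the xpf-1 libraries and 11 over the N2 libraries, ins-16 with 57 and 29, ins-25 with 31 and 9, and ins-32 with 22 and 12 in the same order of groups. ins-14 had 17 reads in xpf-1 and 14 in N2, and ins-39 had 10 in xpf-1 and 5 in N2. ins-12 had 24 reads in xpf-1 and 45 in N2, ins-30 had 23 in xpf-1 and 34 in N2, and ins-15 had 1 in xpf-1 and 13 in N2. ins-21 had 7 reads in xpf-1 and 2 in N2, and ins-38 had 2 in xpf-1 and 0 in N2. ins-13 had 0 reads in all 12 libraries, and a count of 0 still allows up to 3 reads in each. Without the low-count filter, ins-15 was the only one of these 14 to pass, as a fall (edgeR adjusted p = 0.0411), and ins-9 had an adjusted p of 0.0508. The N2 reads of ins-15 lay in replicates 2, 3 and 6 (5, 5 and 3 reads), with 0 in the other N2 libraries. Its p in the exact permutation test over libraries was 0.182.

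ins-31 was read in some libraries and hardly in others, in both groups. The 6 mutant libraries had 57, 73, 3, 93, 2 and 13 reads of it, and N2 replicate 4 had 69 while the other N2 libraries had 0. The spread within a group was thus as large as any difference between the groups. Other genes showed the same pattern. F18E9.7, the gene with the highest correlation to ins-31 over the 12 libraries, had 28, 48, 2, 52, 0 and 8 reads in the mutant libraries and 34 in N2 replicate 4, with 0 in the other N2 libraries. C16C8.9 and ZK1290.11 likewise had 25 and 20 reads in N2 replicate 4 and 0 in the other N2 libraries. These genes were picked after their values were seen. N2 replicate 4 also had the highest summed level of the 31 major sperm protein genes in N2, at 31.8 CPM against 1.499 to 7.41 CPM. In xpf-1 replicates 1 to 6 that sum was 8.87, 30.7, 13.3, 19.9, 12.1 and 31.8 CPM. Replicates 2 and 6, the highest, had 73 and 13 reads of ins-31, and replicate 1, the lowest, had 57. The part of sperm transcripts in the ins-31 values was not tested.

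**Figure D5:**
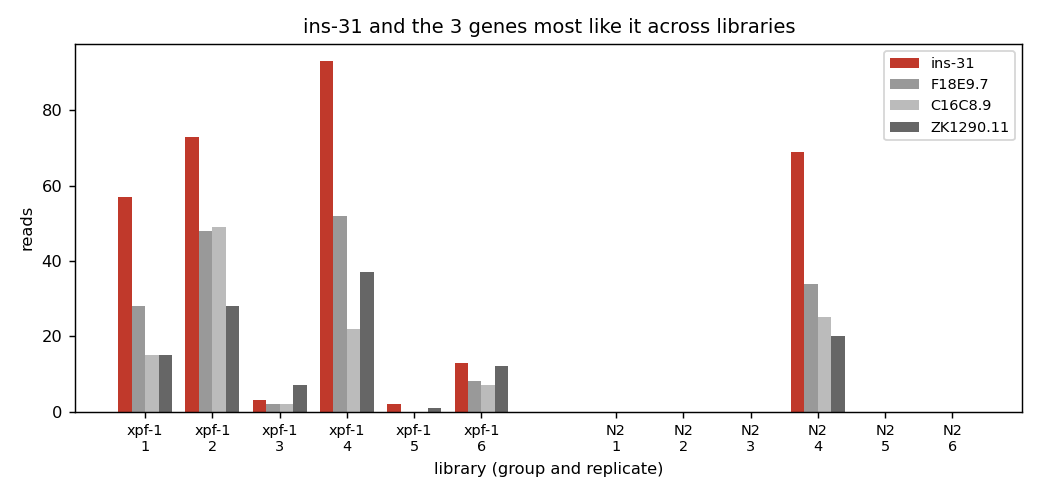
Reads per library of ins-31 and of the 3 genes most like it over the 12 libraries, with the xpf-1 libraries on the left and the N2 libraries on the right. Tall bars stand in xpf-1 replicates 1, 2 and 4 and in N2 replicate 4, and 5 N2 libraries have 0 reads of all these genes.

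The receptor that the peptides share did not pass the test, and its cascade was called in about the shares seen over all genes. daf-2 had 65.9 to 107 CPM in xpf-1 and 46.0 to 80.3 CPM in N2, with an interval of -0.17 to 0.52 for its log2 fold change. Of the 20 genes listed for the cascade, 16 were tested, 5 rose, 6 fell and 5 did not pass, with a median log2 fold change of -0.02. That is 31.2% higher and 37.5% lower, beside 30.1% and 29.6% of all tested genes. The kinase akt-2 averaged 38.8 ± 2.32 CPM in xpf-1 and 25.6 ± 2.52 CPM in N2 (SD, n = 6 each), and rose by 0.60 ± 0.07 log2 units. The kinase pdk-1 rose by 0.39 ± 0.07 log2 units, and daf-16 itself fell by 0.23 ± 0.06 log2 units, a call lost in replicates 1 to 3 alone (edgeR adjusted p = 0.127). All 10 germline markers were lower in the same libraries, and their part in the cascade values was not tested.

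Of 19 genes listed for the maturation and release of peptides, all tested, 7 rose, 1 fell and 11 did not pass, with a median log2 fold change of 0.09. The rises are 36.8% of the list, near the 30.1% of all tested genes, and 42.1% of the list was called, below the 59.7% of all tested genes. hid-1, which acts in dense-core vesicle maturation, averaged 66.7 ± 3.06 CPM in xpf-1 and 45.4 ± 3.76 CPM in N2, and rose by 0.55 ± 0.06 log2 units. The carboxypeptidase gene cpd-1 rose by 0.66 ± 0.08 log2 units, and the peptide amidation gene pghm-1 by 0.49 ± 0.09. kpc-1, a furin-like convertase, averaged 58.7 ± 4.65 CPM in xpf-1 and 47.6 ± 2.97 CPM in N2. The neuronal convertase egl-3 had a log2 fold change of -0.03 ± 0.10 (SE) and did not pass. Beside these values, 5 of 10 pan-neuronal markers were higher and 0 lower, where 30.1% of all tested genes rose and 29.6% fell. Their summed level was 391 to 409 CPM in xpf-1 and 355 to 393 CPM in N2. Most of that sum was snb-1, which did not pass. Of the 6 tested markers of neurosecretory neurons, 1 was higher and 1 lower, or 16.7% each. Among them, ida-1, egl-3 and egl-21 also belong to the maturation and release list, so these lists are not independent. The higher marker, daf-7, was thinly read in both groups. The neurosecretory list summed to 74.9 to 87.8 CPM in xpf-1 and 84.0 to 101 CPM in N2.

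Markers of the other tissues that make insulin-like peptides went both ways, as did all tested genes, of which 30.1% were higher and 29.6% lower. Of 8 intestinal markers, 3 were higher and 2 lower (37.5% and 25.0%), near those shares. Their sums were 507 to 792 CPM in xpf-1 and 615 to 743 CPM in N2. Most of that was asp-1, at 411 CPM in xpf-1 and 510 CPM in N2 on average. Of 5 tested hypodermal markers, 2 were higher and 2 lower (40.0% each). Of the 2 higher, dpy-7 had 143 reads over the mutant libraries and 7 over the N2 libraries. It passed the low-count filter through the mutant libraries, so its place among the tested markers rests on the group where it is higher. The list summed to 99.4 to 124 CPM in xpf-1 and 109.7 to 138 CPM in N2, most of it lin-26, at 77.8 and 95.7 CPM on average. Of 6 body wall muscle markers, 2 were higher and 4 lower (33.3% and 66.7%), with sums of 418 to 497 CPM in xpf-1 and 514 to 606 CPM in N2. No marker in these lists had 0 reads over all libraries. The part of tissue make-up in the changes of the members was not tested.

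Genes reported to lie downstream of DAF-16 were called about as often as other genes, but more of them fell than rose. Of 15 tested genes known to be raised by DAF-16, 2 rose, 7 fell and 6 did not pass, with a median log2 fold change of -0.11. That is 13.3% higher and 46.7% lower, beside 30.1% and 29.6% of all tested genes. In all, 60.0% of the list was called, beside 59.7% of all tested genes. The ferritin gene ftn-1 averaged 103 ± 7.12 CPM in xpf-1 and 196 ± 15.7 CPM in N2, a log2 fold change of -0.93 ± 0.05 (SE). The small heat shock gene sip-1 and the glutathione transferase gene gst-4 fell by 0.89 ± 0.06 and by 0.82 ± 0.08 log2 units, while the transhydrogenase gene nnt-1 rose by 1.12 ± 0.12. The superoxide dismutase gene sod-3, often read as a marker of DAF-16 activity, had a log2 fold change of 0.20 ± 0.13 (SE) and did not pass. Of 7 tested genes known to be lowered by DAF-16, 1 rose, 3 fell and 3 did not pass, so that 57.1% were called. That is 14.3% higher and 42.9% lower, in a short list. The part of DAF-16 in either list was not tested. dod-22 averaged 0.977 ± 0.0954 CPM in xpf-1 and 3.97 ± 0.884 CPM in N2, dod-23 fell by 0.69 ± 0.05 log2 units, gcy-18 fell by 0.83 ± 0.25 and dod-19 rose by 0.66 ± 0.06 (SE).

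In the authors' deposited table, 38 members had an adjusted p and 16 of them were under 0.05. Of these 16, 15 were also called here, each with the same sign. The authors' deposited table did not call ins-3 (0.0907) or ins-22 (0.0505), and it called ins-9 (0.0351), which was not tested here.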

How the data were processed

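The authors deposited raw read counts per gene for 12 libraries. The submitters' processing notes list CASAVA, featureCounts 1.5.0-p3, HISAT2 2.1.0 and build WBcel235. Strandedness, multi-mapping reads and annotation version are not given in the sources. Per the file headers, the authors also gave FPKM values, which for 35 of the 39 members with reads equal the count over deposited gene length and library total (within 1e-06 of the value), a signal of counts divided by 1 size factor per library, and a log2 fold change, p-value and adjusted p-value per gene, by a tool not named in the sources.

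The test was edgeR 4.0.16 under R 4.3.3 (filterByExpr, TMM, robust quasi-likelihood, xpf-1 against N2, no covariates), with Benjamini-Hochberg adjustment over all 14248 genes tested. The scripts were tested on simulated data. CPM uses TMM-adjusted library sizes. Alternatives used DESeq2 1.42.0, limma 3.58.1, other scalings and filters, removal of the gene length trend, replicates 1 to 3 alone, the replicate number as a block and each library left out. Replicate numbers were not used as pairs in the main test. Deviations of same-numbered libraries correlated at -0.00312 to 0.12, and such values cannot exclude a pairing. Triplicates are named in the labels but each group has 6 libraries, so some libraries may be technical repeats and the p-values reflect only library-to-library spread. No pair of libraries agreed within sampling noise. Floors cover counting error only.

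Members and gene lists were chosen with earlier results of these data known. Named genes are all members, with values in most detail for those that passed and the 5 most abundant that did not. From each pathway list the 4 called genes of smallest adjusted p are named, plus daf-2 and daf-16, except 1 cascade gene that is not reported here; egl-3, sod-3 and the genes resembling ins-31 are named outside this rule. Of 133 list entries, 132 matched the table.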

Additional observations from a re-analysis of the deposited data

Results flagged for a closer look

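Of 58 sets of 6 libraries checked for 1 library far from the others, 3 stood out, and chance flags about 1 in 20 such sets. ins-17 was at 5.72 CPM in N2 replicate 1, against 7.79 to 8.94 CPM in the other N2 libraries; without that library its log2 fold change was 0.61 (edgeR adjusted p = 2.59e-06). ins-19 was at 64.6 CPM in N2 replicate 2, against 46.0 to 52.9 CPM in the other N2 libraries; without it the log2 fold change was 1.23 (edgeR adjusted p = 9.44e-21). ins-31 was at 3.62 CPM in N2 replicate 4 and at 0 in the other N2 libraries.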

How the results depend on the processing

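Over 22 alternatives, 12 of the 17 called members stayed past the threshold wherever they were tested, and 8 of the 9 others stayed short of it. The exceptions were daf-28, ins-3, ins-7, ins-10 and ins-22, whose calls were lost in some, and ins-8, which passed in 1. No call changed sign. Between 13 and 17 members were called, and 14 to 17 when 1 library was left out. Under library totals as the only scaling, under upper quartile factors and in replicates 1 to 3 alone, 3 members were called lower in place of 5. In replicates 1 to 3 alone 4 cascade genes were called in place of 11, in a fit with fewer samples, and daf-16, age-1 and akt-1 were among those that did not pass (edgeR adjusted p 0.127, 0.211 and 0.1). There daf-28, ins-3, ins-10 and ins-22 also missed (0.252, 0.477, 0.444 and 0.0594). Without the low-count filter ins-3 missed (0.0845). The summed level without ins-19 gave a ratio of 1.09 in place of 1.39, since that gene holds most of the difference. With the replicate block 17 members and 8536 of all genes were called, against 17 and 8509 without it, and 2 of the 6 mutant libraries correlated best with the N2 library of their own number. Depth limits the members under about 1 CPM: their 95% intervals are over 1 log2 unit wide, and the 14 untested members have at most 93 reads in any library.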

Other observations

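Inside the chromosome II cluster of ins-11, ins-12, ins-13 and ins-38 lie 9 other protein-coding genes, of which 7 had at most 64 reads over the 12 libraries. C17C3.5 averaged 1.12 ± 0.323 CPM in xpf-1 and 11.4 ± 1.78 CPM in N2 (SD, n = 6 each), with all mutant libraries below all N2 libraries, a log2 fold change of -3.33 ± 0.16 (SE) and an edgeR adjusted p of 5.38e-18. acdh-2, which encodes a predicted acyl-CoA dehydrogenase and overlaps ins-13, fell by 0.69 ± 0.21 log2 units. ins-11, in the same span, rose by 1.30 ± 0.23.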
